A study of Mus musculus with 8 samples.

Results

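The 10 genes described here encode subunits of the 2 main families of fast glutamate receptors, the NMDA receptors (Grin1, Grin2a, Grin2b, Grin2c, Grin2d and Grin3a) and the AMPA receptors (Gria1, Gria2, Gria3 and Gria4). They were chosen by gene symbol, and all 10 were found among the 32285 features counted. Their RNA was measured by single-nucleus RNA sequencing of the paraflocculus and flocculus (PF/F), lateral lobules of the cerebellum, in mice at P5.5, that is 5.5 days after birth. WT mice were compared with Tbx1+/- littermates, which carry 1 inactivated copy of Tbx1 in every cell from the germline, on the C57BL/6J background and with both sexes included. Each genotype had 2 PF/F libraries, 1 in each of 2 batches of animals, and each library pooled the tissue of 5 mice. Single animals therefore cannot be told apart within a library, and the 4 libraries are the replicates. The other 4 libraries of the series come from the petrous temporal bone (PTB) around the lobules. Their annotated nuclei, which the paper shows as connective tissue, cartilage and bone cell types, are used here only as a non-neural reference.

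Both receptor families are channels of 4 subunits that open when glutamate binds. An NMDA receptor needs GluN1, the product of Grin1, together with GluN2 subunits (Grin2a to Grin2d) or a GluN3 subunit (Grin3a), and the GluN2 subunit sets how fast the channel closes and how strongly magnesium blocks it. In the rodent cerebellum the GluN2 subunit of granule cells is known to shift after birth from GluN2B towards GluN2A and GluN2C. AMPA receptors are built from GluA1 to GluA4 (Gria1 to Gria4), and a receptor that holds edited GluA2 lets little calcium through. Bergmann glia of the cerebellum are known for AMPA receptors of GluA1 and GluA4 that lack GluA2.

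The annotated PF/F nuclei numbered 48237, or 9153 to 13835 per library, with 37700625 to 52902902 unique molecular identifiers (UMIs) per library and a median of 2610 to 3503 UMIs per nucleus. Cell types are the 16 of the authors' annotation, and levels below are counts per 1000000 UMIs (CPM) of all nuclei of a type summed within a library, given as mean ± SD of the 4 libraries. Of these types, 14 had at least 20 nuclei in every library and were used for the order of levels. Marker genes of 11 types, among them granule neurons, their progenitors, Purkinje cells, unipolar brush cells, astroglia and oligodendrocytes, were highest in the type of that name. For 3 labels they were not. The list for GABA interneuron progenitors was higher in Diff.GABA.interneuron (577 CPM) than in the type of that name (341 CPM). The type labelled Progenitors had the lowest sum of the progenitor markers Sox2, Hes5, Nes and Notch1 of all 16 types (6.16 CPM) and a median of 8241 UMIs per nucleus, and the type labelled RL.early had the highest sum of choroid plexus markers (2603 CPM). All 3 are called by their labels only. No removal of doublets is described in the study's text, and the types labelled Progenitors, GABA.interneuron and Purkinje had medians of 8241, 7028 and 6887 UMIs against 2534.5 to 3689 in the other 13. Pairs of PF/F libraries shared 30 to 60 barcodes, at most 0.503% of the smaller library. Tbx1 itself, the targeted gene, had 4 and 10 UMIs in the WT and 11 and 13 in the Tbx1+/- PF/F libraries, so it gives no check of the genotype in this tissue. In the PTB libraries it stood at 38.9 and 39.4 CPM in WT and at 26.3 and 35.7 CPM in Tbx1+/- mice.

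Because the deposited counts hold RNA set free from other nuclei, each level was read against the immune nuclei of the same libraries, which are not neurons or glia of the neural lineage. The 10 genes stood in immune nuclei at 22.9% to 69.7% of their level over the whole tissue, with a median of 38.0%. Immune nuclei had a median of 2660 UMIs, close to the 2555 of granule neuron progenitors and the 2973 of differentiated granule neurons. Purkinje nuclei, with a median of 6887 UMIs, were not at like depth. Some types lay far below the immune level, such as differentiated granule neurons for Gria1 (10.3 against 64.4 CPM). A level at or below that of immune nuclei is treated as background by convention, and it may still hold RNA of the type itself. By this reading Gria2 was above the immune level in all 4 libraries in 10 of the other 13 types, Gria4 in 9, Grin1 and Gria3 in 8, Grin2b in 7, Grin3a in 6, Grin2a and Grin2d in 5, Gria1 in 3 and Grin2c in 2. Gria2 and Gria4 were thus above the immune level in the most types, and Gria1 and Grin2c in the fewest.

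**Figure D1:**
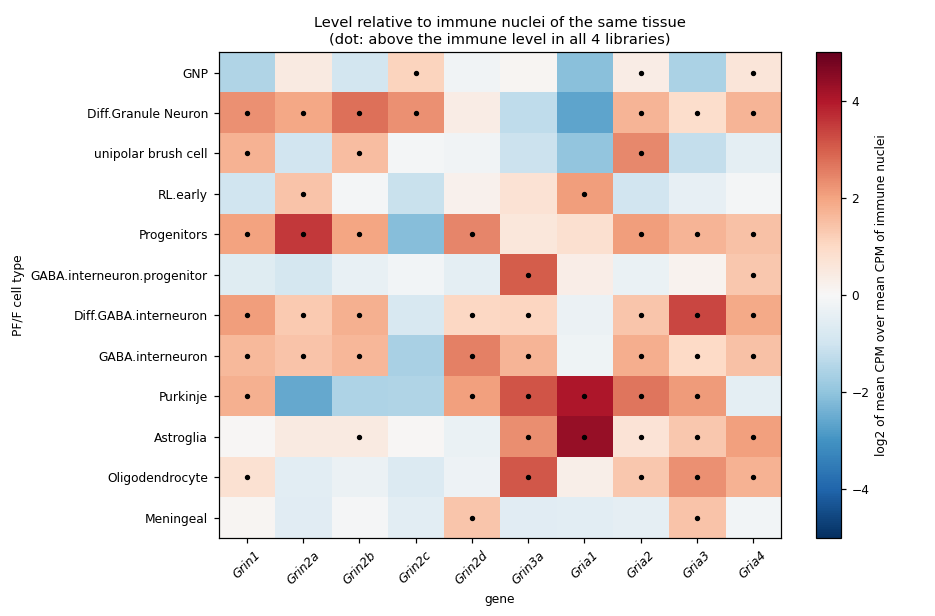
Level of each subunit gene in 12 PF/F cell types (rows) divided by its level in immune nuclei, as log2 of the ratio of the means over 4 libraries; a black dot marks a level above that of immune nuclei in all 4 libraries. Grin1, Grin2b and Gria2 were dotted across the differentiated neurons, except for Grin2b in Purkinje cells, while Gria1 was dotted in Astroglia, Purkinje and RL.early only.

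Grin1 (ENSMUSG00000026959, chr2:25291181-25319187 on the minus strand of mm10) encodes GluN1, the subunit that every NMDA receptor needs. Differentiated granule neurons held 211 and 257 CPM in the WT and 233 and 252 CPM in the Tbx1+/- libraries. Differentiated GABA interneurons held 207 ± 25.8 CPM (SD, n = 4), below granule neurons in all 4 libraries. The type labelled Progenitors had a mean of 196 CPM. Purkinje cells stood at 156 to 173, unipolar brush cells at 162 ± 25.0 and the type labelled GABA.interneuron at 151 ± 6.98 CPM, with neighbours in that order overlapping. Granule neuron progenitors held the lowest level, 17.1 to 17.6 CPM in the 4 libraries, less than in immune nuclei (49.1 ± 15.1 CPM). It was near 0 in the annotated PTB nuclei, at 1.95 to 2.49 CPM.

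Over the 14 types, Grin1 and Gria2 were the pair of members with the most similar pattern (Pearson's r of mean log2(CPM + 1) = 0.86 over 14 types, which share libraries and free RNA and are not independent). The 250 bases of the minus strand before their RefSeq start sites (GRCm38.p6) are shown because these genes moved together. Capitals mark matches to the E-box CANNTG, which reads alike on both strands.
Grin1 (chr2:25319188-25319437): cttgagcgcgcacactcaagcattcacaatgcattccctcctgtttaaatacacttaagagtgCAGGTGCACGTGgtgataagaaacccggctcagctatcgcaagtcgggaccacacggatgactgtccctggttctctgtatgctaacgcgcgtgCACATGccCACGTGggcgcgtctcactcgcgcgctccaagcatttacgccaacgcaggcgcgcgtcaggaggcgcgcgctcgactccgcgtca
Gria2 (chr3:80802836-80803085): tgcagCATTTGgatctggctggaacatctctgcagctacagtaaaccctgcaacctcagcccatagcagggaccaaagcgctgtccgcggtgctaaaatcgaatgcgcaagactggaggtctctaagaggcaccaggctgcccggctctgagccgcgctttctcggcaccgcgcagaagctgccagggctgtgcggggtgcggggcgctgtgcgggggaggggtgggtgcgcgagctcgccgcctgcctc
The Grin1 window held 4 E-boxes and the Gria2 window 1, and 66.2% of 32851 RefSeq windows of this length held at least 1. No match to the GC box GGGCGG, the TATA box TATAAA, the cyclic AMP response element TGACGTCA or TCAGCACC, the left part of the RE1 element, was found in either window on either strand. These letters occur in 32.7%, 12.4%, 1.55% and 1.32% of all windows. GC content was 58.8% for Grin1 and 64.8% for Gria2, against a median of 52.4% over all windows. A match is a run of letters in these windows and says nothing of whether a factor binds there.

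Grin2b (ENSMUSG00000030209, chr6:135713233-136173511, minus strand) encodes GluN2B, the GluN2 subunit of young neurons, and was the GluN2 gene with the most UMIs in each of the 14 types. It was above the immune level in all 4 libraries in 7 of the other 13 types, and the rest are treated as background. In differentiated granule neurons it stood at 1454 and 1506 CPM in the WT and at 1516 and 1479 CPM in the Tbx1+/- libraries, above every other type in all 4. The type labelled Progenitors (874 ± 73.7 CPM) came next, followed by differentiated GABA interneurons (763 ± 19.2), GABA.interneuron (696 ± 60.3) and unipolar brush cells (649 ± 14.4 CPM). Purkinje cells were lowest, with 59.8 to 106 CPM, below the 202 to 235 CPM of immune nuclei in every library. Granule neuron progenitors, at 98.4 to 135 CPM, also lay below the immune level in all 4 libraries, which is treated as background.

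Grin2a (ENSMUSG00000059003, chr16:9567898-9995560, minus strand) encodes GluN2A, the subunit that takes over in many neurons as they mature. Its highest level was in the type labelled Progenitors, at 355 and 286 CPM in WT and 304 and 351 CPM in Tbx1+/- libraries, which is 430 UMIs in 152 nuclei. Differentiated granule neurons came second at 101 to 119 CPM, below Progenitors and above all remaining types of the order in the 4 libraries. GABA.interneuron (76.0 ± 16.1 CPM), RL.early (59.0 to 82.2) and differentiated GABA interneurons (70.0 ± 8.54) did not differ consistently. In Purkinje cells Grin2a had 45 UMIs in 1299 nuclei, or 2.31 to 8.59 CPM, the lowest of all types. In the 2 types left out of the order, Grin2a had 9 UMIs in endothelial nuclei and 34 UMIs in 74 pericyte nuclei. Pericytes had 34852 to 67610 UMIs per library, so over their summed UMIs Grin2a stood above its level in differentiated granule neurons. The annotated PTB nuclei held 40.0 to 53.8 CPM.

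The UMIs of Grin2b exceeded those of Grin2a in differentiated granule neurons by factors of 14.4 and 14.4 in the WT and 14.8 and 12.4 in the Tbx1+/- libraries. In differentiated GABA interneurons the ratio was 9.47 to 12.9, and in the type labelled Progenitors it was 2.33 to 2.95. The ratio of 2.47 to 3.87 in granule neuron progenitors rests on Grin2b at background level. Grin2b took 90.9% ± 0.62 of all GluN2 UMIs in differentiated granule neurons and Grin2a 6.50% ± 0.49. Both genes are long and are counted over introns, with spans of 460 and 428 kb, so that this comparison changes little when UMIs are divided by gene span. Per kb of span, Grin2b stood at 3.23 and Grin2a at 0.249 CPM per kb in these neurons.

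Grin2c (ENSMUSG00000020734, chr11:115249169-115267243, minus strand) encodes GluN2C, known from mature granule cells. It was the rarest member in most types but had its own pattern within the granule lineage. Differentiated granule neurons held 28.5 and 34.1 CPM in WT and 27.5 and 31.2 CPM in Tbx1+/- libraries, and granule neuron progenitors 14.1 and 18.3 CPM in WT and 11.3 and 10.7 CPM in Tbx1+/- libraries. These were the 2 types above the immune level (6.23 ± 5.16 CPM, 8 UMIs in all) in each library. In the other types 2 to 171 UMIs were counted in all 4 libraries together, and no pair of neighbours below the granule neurons differed consistently. The gene span is the shortest of the 10 (18.1 kb), and per kb Grin2c made up 30.9% ± 1.95 of the GluN2 signal of differentiated granule neurons, next to 59.7% ± 2.07 for Grin2b, against 1.85% of UMIs. The 250 bases before its RefSeq start site are shown for this pattern, with matches to the GC box GGGCGG in capitals.
Grin2c (chr11:115267244-115267493): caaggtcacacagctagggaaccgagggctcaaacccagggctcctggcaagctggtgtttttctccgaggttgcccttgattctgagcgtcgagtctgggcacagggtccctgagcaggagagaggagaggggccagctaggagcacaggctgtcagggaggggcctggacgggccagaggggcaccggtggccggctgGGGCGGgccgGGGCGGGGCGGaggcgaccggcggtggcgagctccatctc
This minus-strand window held 3 GC boxes, of which the second and the third share a base, and no E-box, TATA box, cyclic AMP response element or RE1 part, at a GC content of 68.8%. Promoter sequence was at hand for 5 of the 10 members, and the windows of Grin2d and Gria4 held 1 E-box each and none of the other motifs.

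Grin2d (ENSMUSG00000002771, chr7:45831883-45878378, minus strand) encodes GluN2D, a subunit of slow NMDA receptors in interneurons and young Purkinje cells. GABA.interneuron held 55.1, 46.4, 54.3 and 59.5 CPM in WT replicates 1 and 2 and Tbx1+/- replicates 1 and 2, and the type labelled Progenitors 51.1 ± 5.97 CPM. Purkinje cells followed at 35.9 to 39.8 CPM, below GABA.interneuron in all 4 libraries. Meningeal nuclei came next at 24.3 ± 5.40 CPM, above the immune level (9.38 ± 4.20 CPM) in each library. Differentiated granule neurons, with 12.2 ± 1.14 CPM, were not above it throughout. In Purkinje cells Grin2d made up 32.5% ± 6.30 of GluN2 UMIs and 73.7% ± 6.13 of the GluN2 signal per kb, whereas in differentiated granule neurons it made up 0.74% of UMIs. Of the GluN2 genes, only Grin2d was above the immune level in all 4 libraries in Purkinje cells.

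Grin3a (ENSMUSG00000039579, chr4:49661611-49845744, minus strand) encodes GluN3A, which lowers calcium entry through NMDA receptors of the young brain. It had a pattern of its own among the NMDA genes. Purkinje cells (306 and 339 CPM in WT, 263 and 291 CPM in Tbx1+/- libraries), oligodendrocytes (286 ± 34.0 CPM) and GABA interneuron progenitors (274 ± 50.5 CPM) could not be ordered, and astroglia followed at 167 ± 29.9 CPM. The lowest levels were in the glutamatergic neurons, with 15.9 CPM in unipolar brush cells and 13.9 ± 1.83 CPM in differentiated granule neurons, against an immune mean of 33.5 CPM. Over the 14 types the r of Grin3a with Grin2b was -0.56, and with Gria1 it was 0.70.

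**Figure D2:**
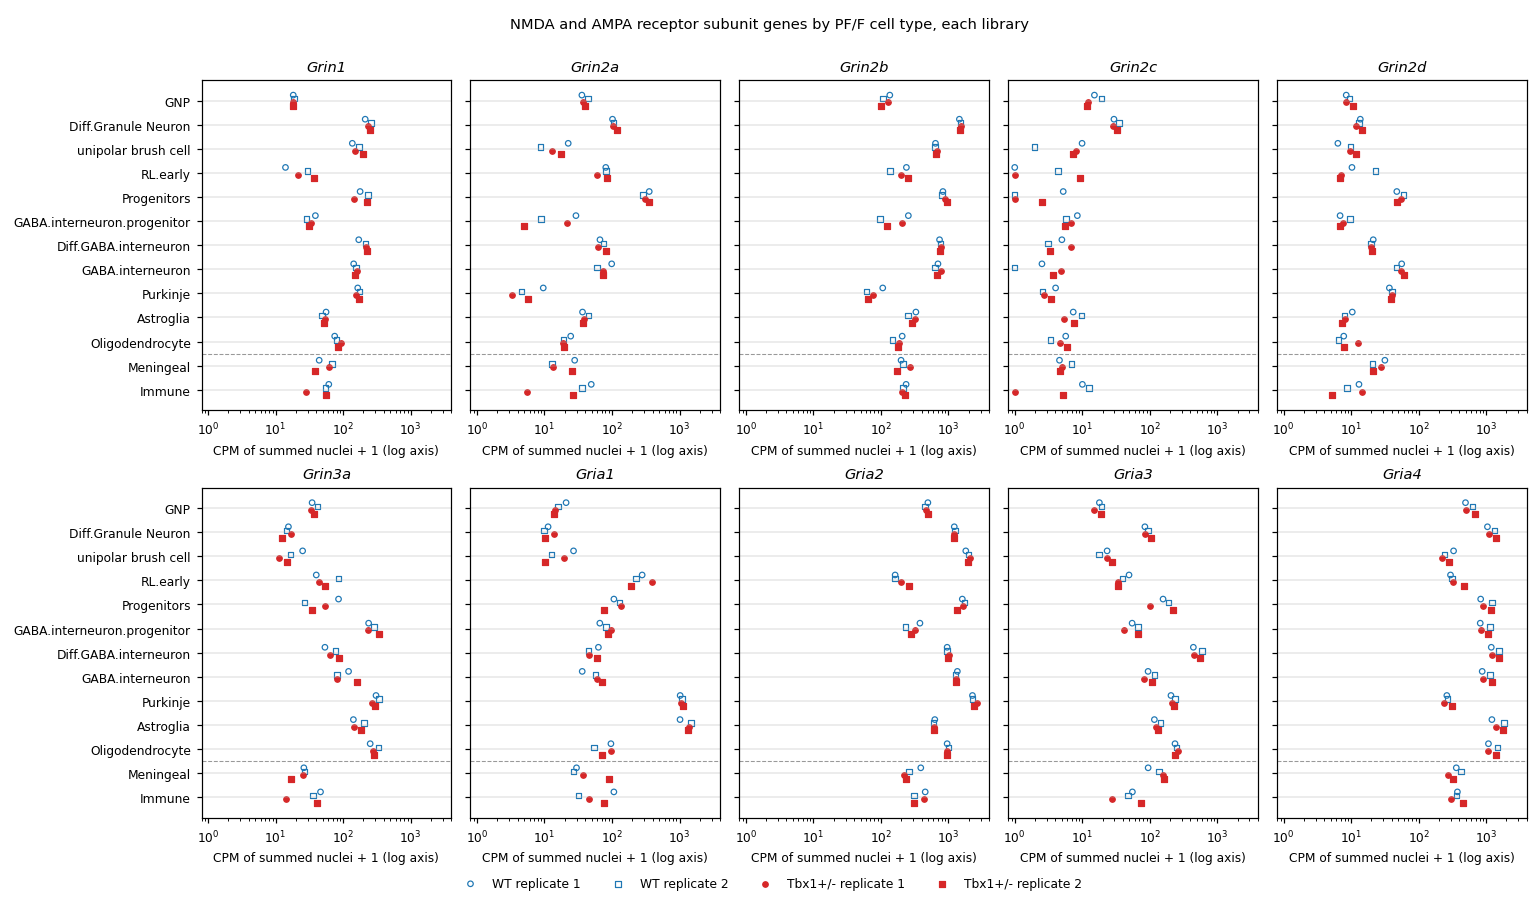
Level of each subunit gene (panels) in 13 PF/F cell types (rows) as CPM of summed nuclei + 1 on a log axis, with 1 point per library (open: WT, filled: Tbx1+/-; circles: replicate 1, squares: replicate 2). Meningeal and Immune, below the dashed line, are the types outside the neural lineage, and Grin2b in differentiated granule neurons, at 1454 to 1516 CPM, lies above every other type.

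Gria2 (ENSMUSG00000033981, chr3:80681450-80802835, minus strand) encodes GluA2, the subunit that decides on calcium entry through AMPA receptors. Purkinje cells held the highest level, with 2271 and 2290.1 CPM in WT and 2628 and 2357 CPM in Tbx1+/- libraries. Unipolar brush cells followed at 1957 ± 105 CPM, below Purkinje cells in all 4 libraries. The type labelled Progenitors had a mean of 1584 CPM. GABA.interneuron (1309.7 ± 34.4), differentiated granule neurons (1227 ± 22.5) and differentiated GABA interneurons (978 ± 23.2 CPM) came in this order in every library. Oligodendrocytes held 964 ± 24.4 CPM, about the level of GABA interneurons, and astroglia 611 ± 12.2 CPM. Of the 13 steps in this order of types, 9 held in all libraries, the most of the 10 genes. Gria2 had the largest share of AMPA receptor UMIs in unipolar brush cells, 86.4% ± 2.66, and made up 60.4% ± 2.17 in Purkinje cells.

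Gria1 (ENSMUSG00000020524, chr11:57011387-57330244 on the plus strand) encodes GluA1 and had the widest range of the 10 genes. Astroglia held 1017 and 1484 CPM in the WT and 1389 and 1349 CPM in the Tbx1+/- libraries, and Purkinje cells held 1022 to 1124 CPM, without a consistent order between them. RL.early stood next at 272 ± 87.2 CPM. In differentiated granule neurons Gria1 had 8.87 to 12.8 CPM, 127-fold below astroglia by the means, and below the immune level of 31.0 to 106 CPM in all 4 libraries. Granule neuron progenitors and unipolar brush cells, at 15.2 and 16.3 CPM, were also below it in each library. At a common depth of 1000 UMIs per nucleus, 49.5% ± 4.49 of astroglial nuclei and 62.2% ± 1.57 of Purkinje nuclei had a Gria1 UMI, against 2.81% of immune and 1.04% of differentiated granule nuclei. Without thinning these shares were 61.8%, 98.9%, 5.76% and 3.1%.

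Gria4 (ENSMUSG00000025892, chr9:4417896-4796234, minus strand) encodes GluA4, a subunit of fast receptors in the cerebellum. Its order of types differed from that of Gria2. Astroglia were highest with 1215 and 1822 CPM in WT and 1401 and 1786 CPM in Tbx1+/- libraries, and differentiated GABA interneurons (1384 ± 196), oligodendrocytes (1259 ± 213) and differentiated granule neurons (1214 ± 171 CPM) followed. Unipolar brush cells and Purkinje cells, the types with the most Gria2, were lowest, at 269 ± 47.0 and 269 ± 28.5 CPM, under the immune mean of 375 CPM. Replicate 2 was above replicate 1 in both genotypes in 12 of 14 types. In differentiated granule neurons it stood at 1044 and 1329 CPM in WT and at 1093 and 1389 CPM in Tbx1+/- replicates 1 and 2, a step of 0.35 on the log2 scale in either genotype. Only 1.49% of 17022 genes rose at least as much in both genotypes in that type. Gria3 was higher in replicate 2 in both genotypes in 10 of 14 types, and Grin2b was lower in 8. Each genotype had 1 library of each replicate number, which is taken here as the batch of animals.

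Gria3 (ENSMUSG00000001986, chrX:41400854-41678601, plus strand) encodes GluA3 and was led by differentiated GABA interneurons, with 441 and 595 CPM in WT and 458 and 553 CPM in Tbx1+/- libraries. Oligodendrocytes (245 ± 10.5 CPM) and Purkinje cells (222 ± 14.1 CPM) came next, in that order in all 4 libraries. GABA.interneuron, also an inhibitory type by label, held 99.6 ± 15.4 CPM, lower than differentiated GABA interneurons by 2.35 ± 0.10 on the log2 scale. Meningeal nuclei had 93.6 to 161 CPM, above immune nuclei in every library. The annotated PTB nuclei held 192 to 229 CPM, more than the 131 ± 17.5 CPM of the whole PF/F. Gria3 was, with Gria4 at 178 ± 11.2 CPM, one of 2 AMPA genes above 100 CPM in the annotated PTB nuclei. In those nuclei Gria2 stood at 9.89 ± 1.68 CPM and Gria1 at 17.9 ± 5.95 CPM. Granule neuron progenitors were lowest, at 13.8 to 18.3 CPM.

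The makeup of AMPA receptor UMIs differed by cell type. Astroglia had 36.3% ± 2.38 Gria1 and 42.9% ± 3.08 Gria4 with 17.2% ± 2.79 Gria2, the smallest Gria2 share of the 14 types. Purkinje cells combined Gria2 with 27.2% ± 1.13 Gria1 and had 6.81% ± 0.77 Gria4. Differentiated granule neurons held Gria2 (48.4% ± 3.32) and Gria4 (47.6% ± 3.29) at like shares with 0.41% Gria1. Differentiated GABA interneurons added 17.4% ± 1.08 Gria3. These are shares of UMIs, and longer genes give more UMIs from nuclei: per kb of gene span, Gria2 (121 kb) took 37.0% ± 4.41 in astroglia and 74.0% ± 2.55 in differentiated granule neurons, against 29.8% and 23.4% for Gria4 (378 kb). The order of the types by Gria2 share at both ends was kept per kb, with astroglia lowest and unipolar brush cells highest.

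**Figure D3:**
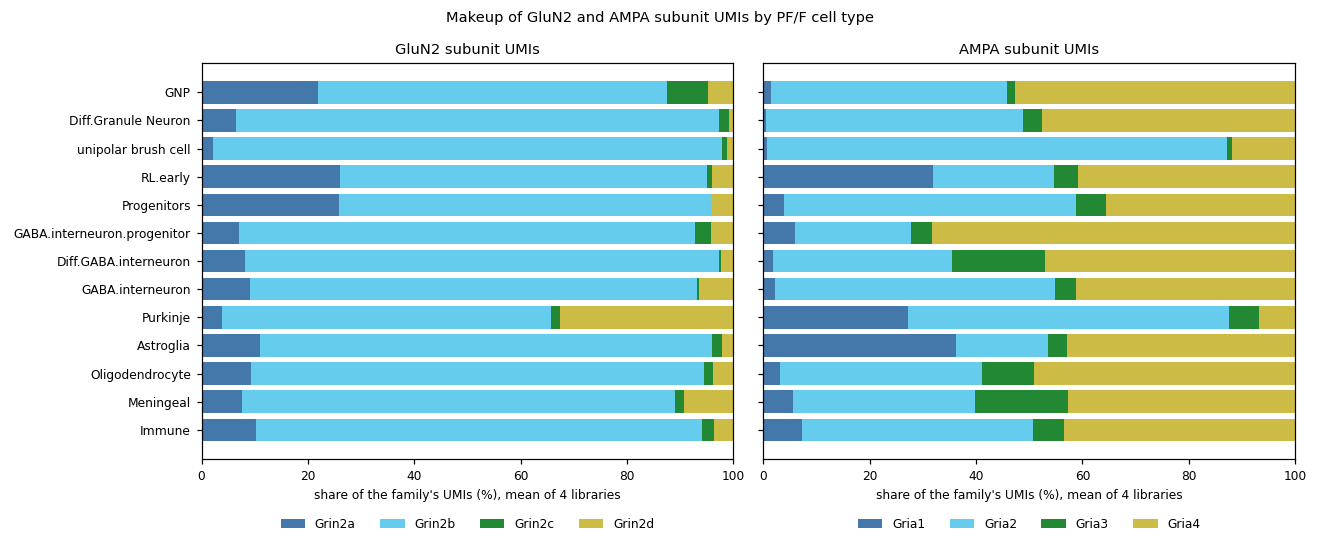
Share of each gene (colours) in the summed UMIs of the GluN2 genes (left) and of the AMPA genes (right) for 13 PF/F cell types (rows), as the mean of 4 libraries in percent. Grin2b fills most of the left bars, with a 32.5% share of Grin2d in Purkinje cells. Grin2b was above the immune level in all 4 libraries in 7 of the 13 types other than immune nuclei, and not in Purkinje cells. Where it was not, its share is treated as background. The right bars run from 86.4% Gria2 in unipolar brush cells to 17.2% in astroglia.

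Differences between progenitors and differentiated neurons were measured within each library, on log2(CPM + 1). These are descriptions, since the cell types were defined on the same nuclei. From granule neuron progenitors to differentiated granule neurons, 8 of the 10 genes were higher and 2 were lower, each in all 4 libraries. Grin1 and Grin2b had the largest steps, 3.70 ± 0.12 and 3.68 ± 0.21 (SD, n = 4). Gria3 stepped up by 2.38 ± 0.14, Grin2a by 1.46 ± 0.15, Gria2 by 1.36 ± 0.10, Grin2c by 1.12 ± 0.27, Gria4 by 1.08 ± 0.05 and Grin2d by 0.52 ± 0.12. Grin3a was lower by 1.30 ± 0.28 and Gria1 by 0.51 ± 0.37 on the same scale. Of the 10 genes, 7 were not above the immune level in all 4 libraries in the progenitors (Grin1, Grin2a, Grin2b, Grin2d, Grin3a, Gria1 and Gria3), and 3 were not in the differentiated neurons (Grin2d, Grin3a and Gria1). For Grin2d, Grin3a and Gria1 this holds at both ends of the step, and the part of free RNA in these steps was not tested.

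The same comparison was made between the types labelled Diff.GABA.interneuron and GABA.interneuron.progenitor, named by label only because, as given above, the progenitor markers were higher in the former. Between them the direction was the same for 9 of the 10 genes. Differentiated GABA interneurons were above GABA interneuron progenitors by 3.17 ± 0.22 for Gria3, 2.64 ± 0.35 for Grin1, 2.44 ± 1.33 for Grin2a, 2.27 ± 0.65 for Grin2b, 1.72 ± 0.30 for Gria2, 1.41 ± 0.28 for Grin2d and 0.53 ± 0.06 for Gria4. Grin3a was 1.97 ± 0.13 lower, from 274 to 69.6 CPM, and Gria1 0.63 ± 0.44 lower. Grin2c, lower by 0.60 ± 0.38, was the gene with opposite directions in the 2 comparisons, and its levels in both inhibitory types (3.55 and 5.68 CPM) were below the immune mean of 6.23 CPM. In GABA interneuron progenitors Grin3a and Gria4 were above the immune level in all 4 libraries and the other 8 genes were not, among them Gria3 at 56.7 CPM against an immune mean of 50.5 CPM. In differentiated GABA interneurons Grin2c and Gria1 (52.6 against 64.4 CPM) were not. The part of free RNA in these steps was not tested either. By the means, the largest differences were those of Grin1 and Grin2b in the granule lineage, which lay within each other's SD. Between the GABA types the largest was that of Gria3.

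**Figure D4:**
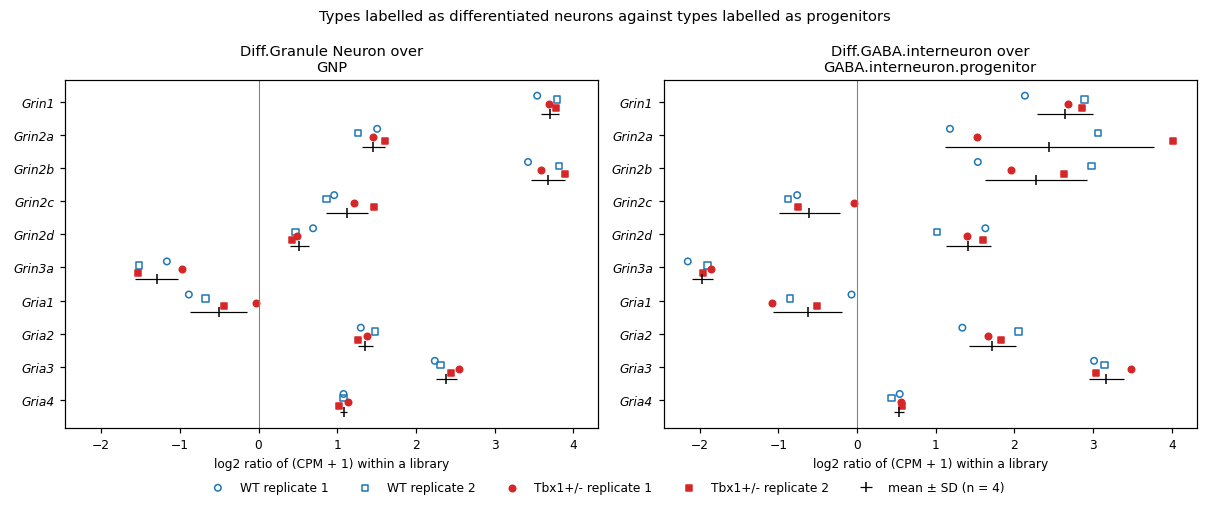
Log2 ratio of CPM + 1 between differentiated granule neurons and granule neuron progenitors (left) and between the types labelled Diff.GABA.interneuron and GABA.interneuron.progenitor (right) for each subunit gene (rows), with 1 point per library and the mean ± SD in black. All points of Grin1, Grin2a, Grin2b, Grin2d, Gria2, Gria3 and Gria4 lie right of 0, and all points of Grin3a and Gria1 left of it, in both panels.

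Genes with the pattern most like each member over the 14 types were looked up among 15165 genes with at least 10 CPM in 1 type. The 3 nearest to Grin1 were Syn3 (a synapsin, r = 0.96), Tmem63c and Slc8a3 (a sodium-calcium exchanger), and to Gria2 they were Map7d2 (r = 0.96), Otud7a and Sptbn4 (an axonal spectrin). The nearest to Grin2b was Gm14330 (r = 0.99), an antisense gene inside the Grin2b span at chr6:135875505-135884792 on the plus strand, and another of the 3, Gm14329 (r = 0.92), lies in it too, so that their reads and those of Grin2b may not be fully separate. The third was 4930415C11Rik. Grin2a was nearest to Tcerg1l (r = 0.86), Gm19461 and Gm15478, Grin2c to Phf20l1 (r = 0.93), Tlx3 and Kcnj6 (a potassium channel), and Grin2d to Gm4425 (r = 0.95), E130008D07Rik and Snhg11. Grin3a was nearest to Lypd1 (r = 0.92), Gpr39 and Ddah1, and Gria1 to Gm30524 (r = 0.92), Arap2 and Ttyh1. For Gria3 the genes were Gm17171 (r = 0.84), Cacna1h (a T-type calcium channel) and Gm20713, and for Gria4 they were Cdh22 (a cadherin, r = 0.84), Gm47661 and Sdc3. Overlapping genes on the other strand were also annotated for Grin1 (Grin1os) and Grin2d (Gm45441 and Kdelr1), and Ppp3r2 overlaps Grin3a on the same strand with 163 UMIs against 14611. Kdelr1 had 6350 UMIs against the 2355 of Grin2d, which makes the Grin2d level uncertain where reads were not assigned by strand.

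Other genes of glutamate signalling were looked up by the type with their highest level. Cacng2, the AMPA receptor auxiliary protein stargazin, was highest in Purkinje cells (348 ± 34.6 CPM), and Cacng4, a related protein, in astroglia (202 CPM) and oligodendrocytes (171 ± 31.8 CPM). Neto1, an auxiliary protein of NMDA and kainate receptors, was highest in oligodendrocytes (188 ± 38.6 CPM). Cnih2, another AMPA receptor partner, had its highest mean of the 14 types in immune nuclei, 27.2 CPM, and 23.9 ± 2.42 CPM in differentiated granule neurons. Among the scaffold proteins, Dlg2 (PSD-93) reached 3580.2 ± 303 CPM in GABA.interneuron and 2972 ± 403 CPM in Purkinje cells, Grip1, which binds GluA2, reached 1837 ± 341 CPM in GABA.interneuron, and Dlg4 (PSD-95) had a maximum of 58.0 ± 5.68 CPM, in astroglia. Grik2, a kainate receptor subunit, led in differentiated granule neurons at 5328 ± 829.9 CPM. Grm4, a metabotropic receptor, was highest in differentiated granule neurons (85.7 ± 5.65 CPM). The vesicular glutamate transporter Slc17a6 (VGLUT2) was highest in differentiated granule neurons (274 ± 8.71 CPM).

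The comparison of genotypes asked whether loss of 1 Tbx1 copy changed these receptors in any PF/F cell type. No member passed the threshold of an adjusted p under 0.05 with a change above 1.5-fold in any of the 14 types or over all annotated nuclei (edgeR quasi-likelihood test on the sums, Benjamini-Hochberg adjustment, 2 against 2 libraries). The background of such calls was 0.00778% of 12851 genes in Purkinje cells, where 1 gene was called, and 0% over all nuclei and in each of the other 13 types. The called gene, named here after its value was seen, was Ttr, a choroid plexus transcript that was 1.97 ± 0.22 higher on the log2 scale in Tbx1+/- Purkinje nuclei. Ttr was not particular to them: both Tbx1+/- libraries were above both WT libraries in 13 of the 14 types, for example at 78.2 and 68.5 CPM in WT and 108 and 276 CPM in Tbx1+/- granule neuron progenitors, and its level was highest in RL.early, at 1395 and 1343 against 2757 and 4287 CPM. Before adjustment, 2 of 130 tests of a member in a type had a p under 0.05 (1.54%), against 1.32% of 161523 tests over all genes. With the replicate number as a block, taken to stand for the batch of animals, these shares changed. They were 11 of 130 (8.46%) for the members and 4.37% for all genes. Of the 11, 4 were in meningeal nuclei, with log2 differences of 1.14 for Gria1, 0.48 for Gria3, -0.49 for Gria2 and -0.40 for Gria4, and the edgeR adjusted p of the 11 ran from 0.11 to 1.00. Without WT replicate 2 the members had 14 of 131 (10.7%), against 3.93% for all genes. The blocked fit made 60 calls over the 14 types (0.0371% of all tests), of 44 genes and none of them a member, with Ttr called in 11 types. DESeq2 gave no call and no unadjusted p under 0.05 among the members in these types.

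Over all annotated PF/F nuclei, the log2 difference of Tbx1+/- from WT lay between -0.13 and 0.10 for the 10 genes, with standard errors up to 0.23. The edges were Grin2c, at 14.8 and 17.7 CPM in WT and 14.3 and 15.0 CPM in Tbx1+/- libraries (-0.13 ± 0.13, SE), and Grin1, at 124 and 155 CPM in WT and 137 and 158 CPM in Tbx1+/- libraries (0.10 ± 0.16). Both sets of libraries overlapped, although for each replicate number Grin1 was higher and Grin2c lower in the Tbx1+/- library. With the replicate block the standard errors over all nuclei were 0.057 to 0.10, with 0.10 ± 0.058 for Grin1 and -0.13 ± 0.089 for Grin2c (edgeR adjusted p = 1.00 for both). In differentiated granule neurons, the largest type, the differences ran from -0.07 (Grin2c) to 0.22 ± 0.19 (Gria1, at background level there), with 0.04 ± 0.21 for Grin2b and -0.01 ± 0.20 for Gria2. In Purkinje cells they were 0.15 ± 0.28 for Gria2, 0.07 ± 0.25 for Gria1, -0.20 ± 0.22 for Grin3a and 0.07 ± 0.21 for Grin2d. The standard errors near 0.2 come from the fit without the block, and with it they were 0.045 for Grin2b and 0.046 for Gria2 in differentiated granule neurons.

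The smallest unadjusted p values belonged to Gria1 in meningeal nuclei and Grin2c in granule neuron progenitors. Meningeal Gria1 stood at 28.8 and 25.7 CPM in WT and at 36.5 and 88.0 CPM in Tbx1+/- libraries, or 16, 13, 27 and 71 UMIs, so the genotypes did not overlap but 1 library carried most of the difference (1.19 ± 0.42, edgeR adjusted p = 1.00). Without Tbx1+/- replicate 1 the difference was 1.67 and passed the threshold (edgeR adjusted p = 0.040), and without Tbx1+/- replicate 2 it was 0.44. Over all alternatives the edgeR or DESeq2 adjusted p ran from 0.040 to 1.00. Of the 4 libraries, Tbx1+/- replicate 2 alone was above its immune level, and with the replicate block the difference was 1.14 ± 0.32 (edgeR adjusted p = 0.11). Markers of other cell types were present in these nuclei. The 4 choroid plexus markers summed to 113 and 83.2 CPM in WT and 185 and 264 CPM in Tbx1+/- meningeal nuclei. Most of that difference lay in Ttr, at 68.4 and 47.5 against 118 and 223 CPM. The 4 erythroid markers summed to 247 and 230 against 469 and 345 CPM, so that both lists were higher in both Tbx1+/- libraries. The 5 astroglia markers overlapped, at 913 and 1315 against 1242 and 1380 CPM. Of 16 marker lists, 3 were higher in both Tbx1+/- libraries and 1 was lower. The other higher list was that of pericytes, at 97.2 and 150 against 154 and 188 CPM. The lower list was that of unipolar brush cells, at 357 and 236 against 229 and 206 CPM. With 2 against 2 libraries, a share of 0.33 of lists would show no overlap, in 1 direction or the other, by the order of libraries alone. No gene of the lists named was at 0, and their part in the result was not tested. Grin2c in granule neuron progenitors was lower in both Tbx1+/- libraries, at the values given above (-0.54 ± 0.20, edgeR adjusted p = 1.00). Among nuclei with at least 2000 genes this difference was -0.27 ± 0.27, and it was -0.35 ± 0.26 without WT replicate 2 and -0.71 ± 0.25 without WT replicate 1. In these progenitors, too, 3 of the 16 marker lists were higher in both Tbx1+/- libraries and 1 was lower, with the choroid plexus markers at 235 and 244 CPM in WT and 276 and 432 CPM in Tbx1+/- libraries. Within that sum Ttr alone stood at 78.2 and 68.5 against 108 and 276 CPM. The other higher lists were the markers of differentiated granule neurons, the type with the most Grin2c, at 879 and 891 against 937 and 925 CPM, and those of astroglia, at 369.9 and 355 against 373 and 379.5 CPM. The lower list was that of immune cells, at 90.9 and 91.8 against 89.4 and 89.5 CPM. The share of 0.33 given above applies here too. The part of these lists in the result was not tested.

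The ratio of Grin2b to Grin2a in differentiated granule neurons, a measure of the GluN2 switch, differed by -0.09 on the log2 scale between Tbx1+/- (mean 3.76) and WT (mean 3.85). The exact two-sided permutation test gave p = 1.0, and with 2 against 2 libraries it cannot go below 0.33. The difference was 0.04 in replicate 1 and -0.21 in replicate 2, so its sign was not shared.

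Related genes were counted in the same way. Of 5 kainate receptor genes, 8 metabotropic receptor genes, 3 further delta and GluN3B genes, 13 AMPA receptor auxiliary genes, 21 scaffold and anchoring genes and 7 glutamate transporter genes, none passed the edgeR threshold in either direction in any of the 14 types in the fit without the block. Unadjusted p values under 0.05 occurred in 1 of 68, 2 of 83, 0 of 30, 0 of 139, 2 of 264 and 1 of 74 tests of these lists, or 6 of 658 in all (0.91%, against 1.32% over all genes). With the replicate block they occurred in 54 of 658 (8.21%, against 4.37% over all genes), and 1 gene of these lists was called, in meningeal nuclei, where 0.24% of 10002 genes were called in that fit. It was Grm8, a metabotropic receptor, named here after its value was seen. It stood at 68.4 and 39.6 CPM in WT and at 12.2 and 19.8 CPM in Tbx1+/- libraries, or 38, 20, 9 and 16 UMIs, and was lower in Tbx1+/- nuclei by 1.72 ± 0.37 on the log2 scale (edgeR adjusted p = 0.0024). The marker sums given above for these nuclei apply to it too. Without single libraries 0 to 4 calls fell on these lists, the 4 without WT replicate 1, where they were 0.60% of 669 tests against 0.14% of 170956 tests over all genes.

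**Figure D5:**
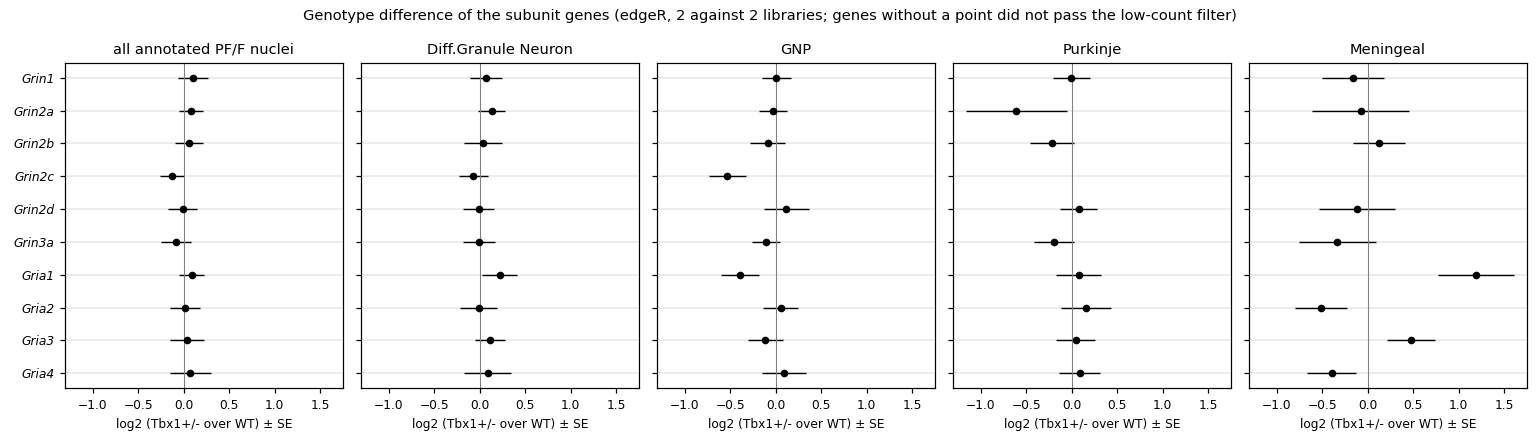
Log2 difference between Tbx1+/- and WT ± SE for each subunit gene (rows) over all annotated PF/F nuclei and in 4 cell types (panels), from edgeR on 2 against 2 libraries. Over all nuclei the points lie between -0.13 and 0.10, and of the points drawn the farthest from 0 is meningeal Gria1 at 1.19.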

How the data were processed

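Nuclei of the PF/F and the PTB from P5.5 WT and Tbx1+/- mice were profiled in 8 libraries of 5 pooled mice each. The deposited matrices hold uncorrected UMI counts. The authors produced them on mm10 with Cell Ranger 7.0.0 and counted intronic reads. Nothing in the sources used here states how reads were assigned by strand. Cell types are the authors' deposited annotation. The 10 members and the gene lists were chosen with earlier results of these data known.

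UMIs were summed per library and cell type with Python 3.11.15, numpy 2.4.6 and pandas 2.3.3, and a level is the sum scaled to 1000000 UMIs (CPM). The pseudocount on the log2 scale was 1 CPM. Types with fewer than 20 nuclei in a library were not ordered or tested. A type was said to differ from the next only where all 4 libraries had the same sign. To compare shares of nuclei with a UMI, each nucleus was thinned to 1000 UMIs. Gene spans come from GENCODE vM21, which held 32158 of the 32285 feature identifiers, and promoter windows from RefSeq. Genes named were the members, the 3 most like each, list genes that passed the threshold and 13 partner genes of the lists. The levels of some of these and of 1 of the 14 cell types are not reported here.

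Genotypes were compared with edgeR 4.0.16 in R 4.3.3 (filterByExpr, TMM, quasi-likelihood test), fitted to all genes of a type. Standard errors were derived from the log2 change and its quasi-likelihood F value. No term for batch was used. Thresholds were an adjusted p under 0.05 and 1.5-fold. Alternatives were DESeq2 1.42.0, RLE factors, no count filter, the replicate number as a block, nuclei with at least 2000 genes, leaving out the top 8% of nuclei by UMIs, and leaving out each library. The reading against immune nuclei and the comparison of batches were added after the data were seen. The edgeR fit without the block was also run on simulated data with changes of a single size, above the 1.5-fold threshold. Recovery of smaller changes was not measured. In the real data, 1.32% of edgeR tests without the block had an unadjusted p under 0.05, fewer than that cutoff implies without any difference. The absence of a call therefore does not show that a member was unchanged. Ratios were compared with scipy 1.17.1 and exact permutation, and figures drawn with matplotlib 3.10.9. The study's methods describe 2 sets of animals that were processed separately. Libraries with the same number were taken here to come from the same set, which the methods do not state. As a check, the deviations of paired WT and Tbx1+/- libraries had a correlation of 0.54 over 20695 genes. Nothing says that a library's mice repeat in another, and p-values cover the spread between pools.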

Additional observations from a re-analysis of the deposited data

Results flagged for a closer look

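Barcodes outside the annotation enter no comparison above, and each member had UMIs in them, which is why they are listed. They hold 9721 PF/F barcodes with 133.5 CPM of Grin1, 80.1 of Grin2a, 558 of Grin2b, 10.6 of Grin2c, 20.4 of Grin2d, 105 of Grin3a, 306 of Gria1, 1120 of Gria2, 134 of Gria3 and 875 of Gria4. In the 32101 PTB barcodes outside the annotation, Grin1 stood at 28.6 CPM, Grin2a at 32.3, Grin2b at 49.5, Grin2c at 0.62, Grin2d at 11.2, Grin3a at 26.5, Gria1 at 25.4, Gria2 at 111, Gria3 at 199 and Gria4 at 250.3 CPM. In the annotated PTB nuclei the means were 2.24 CPM for Grin1, 6.96 for Grin2b and 9.89 for Gria2. Of the 10 genes, 6 were higher in the PTB barcodes left out of the annotation than in those kept (also Grin2c, Gria1 and Gria4) and 4 were lower: Grin2a at 32.3 against 47.7 CPM, Grin2d at 11.2 against 15.5, Grin3a at 26.5 against 26.7 and Gria3 at 199 against 205 CPM. The differences were not tested.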

How the results depend on the processing

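The count of members called by cell type was 0 in the analysis as reported and under 9 of the 10 alternatives. Leaving out single libraries gave 0 to 1, the 1 being meningeal Gria1 without Tbx1+/- replicate 1. With the replicate block it was 0 as well, over all nuclei too, and the block changed no call of a member. Over all genes and the 14 types the calls numbered 1, and 60 (of 44 genes) with the replicate block, 31 without the count filter, 2 with DESeq2 and 20 to 236 without single libraries. Over all nuclei no gene was called under any setting, and 99 genes had an unadjusted p under 0.05 with edgeR, 626 with the replicate block and 31 with DESeq2. Log2 differences over all nuclei ran, without single libraries, from -0.046 to 0.26 for Grin1, -0.053 to 0.19 for Grin2a, -0.20 to 0.14 for Grin2d, -0.27 to 0.065 for Grin3a, -0.00011 to 0.18 for Gria1, -0.029 to 0.048 for Gria2, -0.17 to 0.20 for Gria3 and -0.13 to 0.25 for Gria4, so the direction of each turned. Those of Grin2b and Grin2c kept their direction there, but among nuclei with at least 2000 genes Grin2b turned to -0.020 and Grin2d to 0.033. The Grin2b to Grin2a ratio gave a log2 difference of -0.086 with the replicate block and -0.21 to 0.041 without single libraries, turning without Tbx1+/- replicate 2. The causes were not tested. In the granule lineage, the number of members higher in all libraries was 8 under all 6 alternatives, and 7 single steps moved by more than 1 SD: 6 among nuclei with at least 2000 genes, that of Grin2b to 3.13, and that of Grin1 to 3.83 without the top 8% of nuclei by UMIs. The top type of Grin1, Grin2d or Grin3a changed to its neighbour in the order under 4 alternatives. Small types limit the precision: Progenitors held 20 to 72 nuclei per library.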
